A study of Mus musculus with 12 samples.

Results

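The genes described here are 33 microglia and complement genes, taken from the 56941 genes in the count tables of 12 mouse cerebella. They were listed by symbol and matched by Ensembl ID, by a rule that holds no measured value. The genes were, however, chosen with earlier results of these data known. The list holds 16 homeostatic microglia genes, 10 genes that rise in activated or disease-associated microglia, 5 complement genes and 2 cytokine genes. The cerebella came from 16-week-old C57BL/6J mice that were either wild-type (WT) or carried SCA1, a long CAG repeat knocked into 1 allele of the mouse Atxn1 gene. The repeat is under the gene's own promoter and so was not limited to neurons. Exercise mice had a running wheel for 12 weeks from 4 weeks of age and were housed alone, and sedentary mice had no wheel and were group-housed, so wheel running and housing cannot be told apart. There were 3 mice in each group: WT sedentary (mice 116, 117 and 192), WT exercise (121, 197 and 201), SCA1 sedentary (16, 194 and 195) and SCA1 exercise (55, 122 and 198). By the paper's methods, wheels were taken out some days before behavioural testing, which included a rotarod in all groups. All mice were perfused with saline after the last test, so exercise mice were not running on a wheel at collection. Each library is total RNA of cerebellum from 1 mouse. The study used males and females. Sex is not among the labels, but it was not balanced between the groups by the chromosome Y genes given below.

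Microglia are the resident macrophages of the brain. In the healthy brain they carry purinergic and fractalkine receptors with which they sense nucleotides and neuronal signals, and they depend on the receptor CSF1R to survive. When they meet debris, dying cells or amyloid they lower part of this homeostatic programme and raise genes of phagocytosis and lipid handling, in part through TREM2 and its adaptor TYROBP. Complement C1q, which microglia make, tags synapses and debris, and the cleavage of C4 and C3 then marks them for uptake. In bulk RNA, fewer cells of a type and less RNA per cell cannot be told apart.

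The libraries held between 20556802 and 32127508 counts assigned to genes on the reverse strand. Libraries of mouse 16 (SCA1 sedentary) and mouse 55 (SCA1 exercise) stood apart from the other 10. Their share of multimapping read pairs was 6.38% and 6.33%, against 2.08% to 3.46% in the others. Their summed level of 8 brainstem neuron markers was 254 and 191 CPM (counts per 1000000 counts), against 33.2 to 58.2 CPM. All 8 of these markers, and all 8 oligodendrocyte markers, had mice 16 and 55 as their 2 highest libraries. Each comparison is therefore given with and without these mice. The summed level of 4 chromosome Y genes was 0 to 0.404 CPM in mice 201 (WT exercise), 194 (SCA1 sedentary), 55 and 122 (both SCA1 exercise). It was 207 to 264 CPM in the other mice, among them all WT sedentary mice. The groups thus differed in sex, and the part of sex was not tested beyond a model with a sex covariate. The labelled tissue was borne out by Purkinje cell markers, whose summed level was 4306 to 7833 CPM. In SCA1 sedentary mice the Purkinje markers Pcp4 (log2FC -1.17, adjusted p = 0.0126) and Calb1 (log2FC -0.82, adjusted p = 0.0398) were lower than in WT sedentary mice by edgeR's quasi-likelihood test.

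All 33 genes had counts, and 29 passed the filter on low counts: 16 of 16 homeostatic, 8 of 10 activated, 5 of 5 complement and 0 of 2 cytokine genes. Per kilobase of annotated exon, the highest level was that of Apoe, the lipid carrier that astrocytes also make, at a mean of 102 CPM per kb. It was followed by the secreted phosphoprotein gene Spp1 (5.997 CPM per kb), C1qa (5.19), Csf1r (4.38), Tyrobp (3.76), C4b (3.38), the lysosomal protease gene Ctss (3.11), C1qc (2.94) and Cx3cr1 (2.48). Apoe alone set most of the summed level of the activated class, which is why that sum is many times larger than the others. At the low end of the tested genes was Aif1, which encodes the microglial stain marker IBA1, at 0.177 CPM per kb. The leukocyte phosphatase gene Ptprc (0.131) and the lipase gene Lpl (0.0689) were lower still. This order depends on the annotated exon length of each gene, which was 682 bases for Tyrobp, 1610 for C1qa, 6246 for C1qb and 18764 for Ptprc. C1qb was below C1qa per kb (1.61 against 5.19), although its mean CPM was higher (10.03 against 8.35). The order is therefore not a ranking of transcript abundance. The defining homeostatic genes Cx3cr1, P2ry12, Tmem119 and Csf1r were counted in all 12 libraries. These are members of the list themselves, and their counts do not show which cells the other members come from. Markers of blood leukocytes were close to absent: the summed level of 8 neutrophil and monocyte genes was 0.131 to 3.35 CPM and that of 8 lymphocyte genes 0.175 to 0.830 CPM. Border macrophage markers such as Mrc1 and Lyve1 were present at 19.98 to 31.6 CPM summed over 8 genes.

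Most of the spread in the microglia genes lay between mice 16 and 55 and the rest, not between the 4 groups. Of the 29 tested genes, 21 had mice 16 and 55 as their 2 highest libraries, or 72.4%, against 17.1% of all 20341 tested genes. The highest library was mouse 16 for 21 genes, mouse 55 for 3 and another mouse for 5. All 5 complement genes, 12 of 16 homeostatic genes and 4 of 8 activated genes had these mice on top. Relative to the median of the other 10 mice, the median gene was 1.95-fold as high in mouse 16 and 1.58-fold as high in mouse 55. The summed level of the 16 homeostatic genes was 192 CPM in mouse 16 and 148 CPM in mouse 55, against 89.4 to 126 CPM in the other 10. The summed complement genes were at 89.7 and 71.7 CPM in these mice, against 34.6 to 51.7 CPM.

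**Figure D1:**
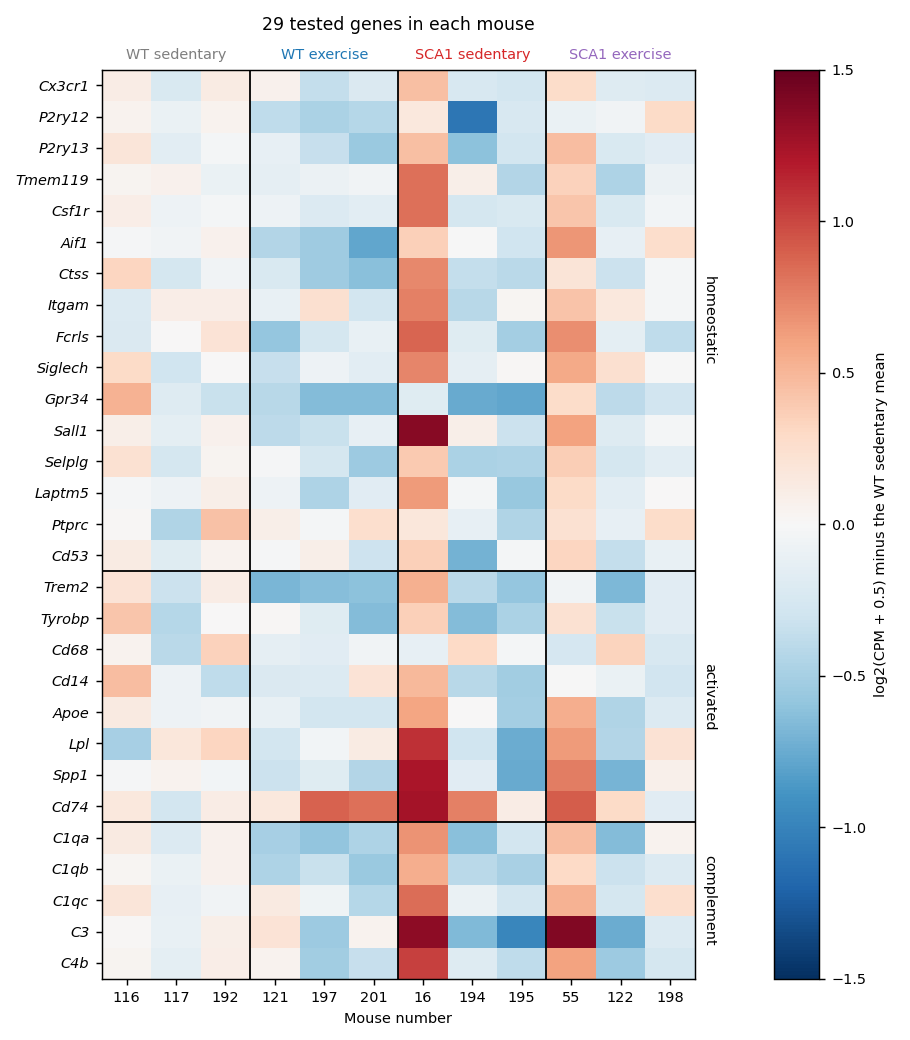
Heat map of the 29 tested genes (rows, by class) in the 12 mice (columns, by group), as log2(CPM + 0.5) minus the mean of the 3 WT sedentary mice. The columns of mice 16 and 55 are red for most genes, the 3 WT exercise columns are mostly blue, and Cd74 stands apart from the other rows in being red in mice 197 and 201; values run from -1.08 to 1.39.

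Oligodendrocyte markers moved with the microglia genes across these libraries. Their summed level was 7316 CPM in mouse 16 and 5844 CPM in mouse 55, against 2623 to 4415 CPM in the other 10. Astrocyte and Bergmann glia markers summed to 4643 CPM in mouse 16 and 5260 CPM in mouse 55, against 3093 to 4530 CPM, and markers of meninges and fibroblasts to 149 and 125 CPM, against 57.8 to 112 CPM, so that both lists too were above all 10 other mice. Markers of border macrophages did not place these mice on top for any of 7 tested genes, and the 8 endothelial markers summed to 164 and 170 CPM in them against 190 to 223 CPM. The part of the brainstem, oligodendrocyte, astrocyte and meningeal signal in the microglia values was not tested. A few members did not follow the pattern. Cd68, a lysosomal protein of phagocytes, was at 0.929-fold and 0.832-fold of the median of the other mice in mice 16 and 55. Ptprc, Gpr34 and P2ry12 each had their highest value in another mouse. At the other end, C3 was 3.95-fold and 4.10-fold as high in mice 16 and 55, and Lpl 3.49-fold and 2.31-fold.

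**Figure D2:**
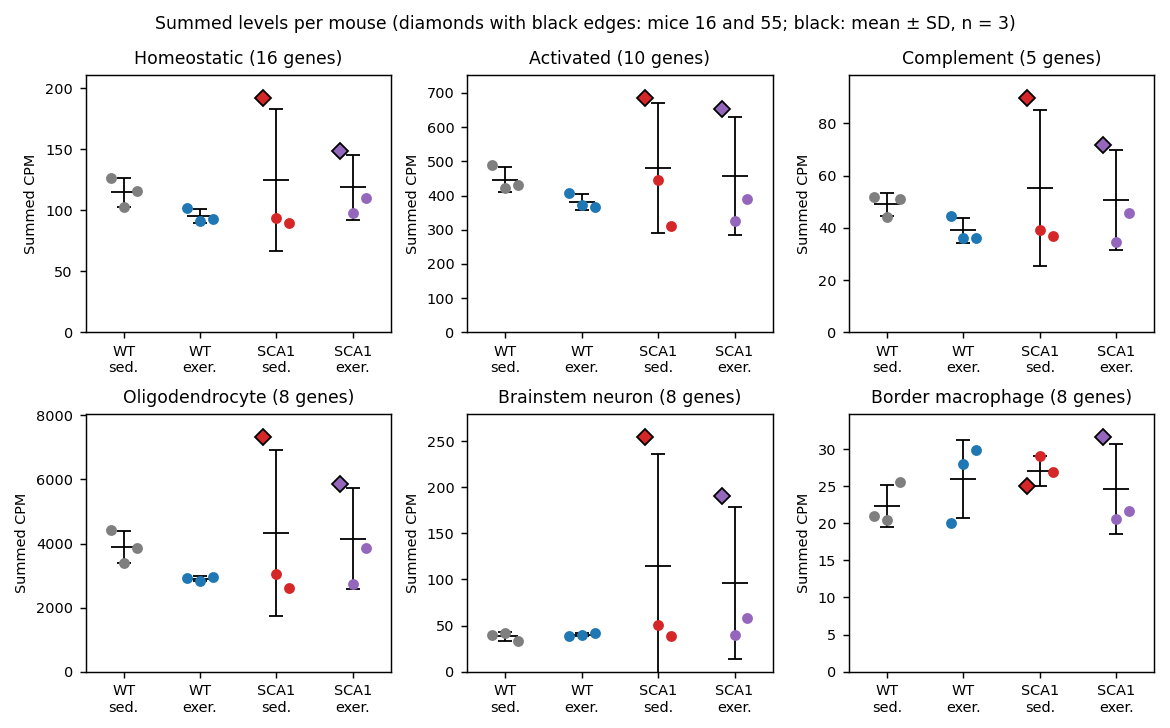
Summed CPM of the 3 larger classes of members and of 3 lists of marker genes in each mouse, with the mean ± SD of 3 mice per group (bars that reach below 0 are drawn to 0). Mice 16 and 55 lie above every other mouse in the member, oligodendrocyte and brainstem panels, and mouse 16 lies among the others in the border macrophage panel, where mouse 55 is the highest at 31.6 CPM.

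The first comparison, SCA1 sedentary against WT sedentary mice, asked whether the repeat alone went with a change in the microglia genes. No member was called by edgeR's quasi-likelihood test or by DESeq2, where a call needed an adjusted p under 0.05 together with a log2FC over 0.5 or under -0.5. Of all 20341 tested genes, edgeR called 0.0344%. The log2FC was above 0 for 19 and below 0 for 10 of the 29 tested members, with a median of 0.08, and the median over all genes was 0.02. At an unadjusted p under 0.05 only Cd74 was higher, against 5.55% of all genes higher at that limit, and no member was lower, against 4.55%. The members' 95% intervals were 0.73 wide to each side at the median, and for 11 of 29 the interval reached a log2FC of 1 or -1, which is a doubling or a halving.

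Among the homeostatic genes, Csf1r, the receptor that microglia need to survive, was at 33.6, 29.8 and 30.7 CPM in WT sedentary mice 116, 117 and 192. In SCA1 sedentary mice 16, 194 and 195 it was at 56.1, 25.9 and 26.6 CPM. One SCA1 mouse was thus above all WT mice and the other 2 below them. The fitted log2FC was 0.21 ± 0.26 (SE; adjusted p = 0.818). Cx3cr1, the fractalkine receptor, was at 12.8, 9.998 and 13.0 CPM in WT and at 16.3, 9.98 and 9.72 CPM in SCA1 sedentary mice, with the same arrangement. P2ry12, the ADP receptor that guides microglial processes, was at 6.47, 5.77 and 6.45 CPM in WT and at 7.03, 2.68 and 5.20 CPM in SCA1 sedentary mice. Its log2FC was -0.32 ± 0.28. Gpr34, a lysophosphatidylserine receptor, was the homeostatic gene with the lowest p. It was at 3.82, 2.14 and 1.89 CPM in WT and at 2.15, 1.27 and 1.25 CPM in SCA1 sedentary mice, so that mouse 16 lay just above the middle WT mouse and the other 2 below all WT mice. The log2FC of Gpr34 was -0.74 ± 0.34 (adjusted p = 0.5001). Sall1, a transcription factor that sets microglial identity, had the largest positive value of the class (log2FC 0.59 ± 0.37), with 25.4 CPM in mouse 16 and 10.2 and 7.51 CPM in the other SCA1 sedentary mice, against 8.55 to 10.1 CPM in WT. Cd53, a tetraspanin of leukocytes, was at 1.61, 1.20 and 1.51 CPM in WT and at 1.98, 0.680 and 1.40 CPM in SCA1 sedentary mice, with overlap. The remaining homeostatic genes had log2FCs between -0.19 (Ptprc) and 0.32 (Itgam, the integrin CD11b). None of the 29 members separated the 2 groups, against 5.6% of all genes that did so upward and 5.76% downward.

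Of the activated genes, Cd74, the invariant chain of MHC class II, was at 2.02, 1.37 and 1.92 CPM in WT and at 4.84, 3.31 and 1.92 CPM in SCA1 sedentary mice. The groups overlapped, since mouse 195 lay within the WT range. The log2FC was 0.92 ± 0.40 with an unadjusted p of 0.0375 and an adjusted p of 0.468 by edgeR. Choroid plexus markers summed to 1472, 1850 and 121 CPM in mice 16, 194 and 195, against 144 to 686 CPM in WT sedentary mice. Border macrophage markers summed to 25.1, 29.1 and 26.9 CPM in mice 16, 194 and 195, against 20.4 to 25.5 CPM. The part of these tissue differences in the Cd74 values was not tested. The phagocytic receptor gene Trem2 was at 4.07, 2.69 and 3.81 CPM in WT and at 5.26, 2.51 and 2.17 CPM in SCA1 sedentary mice. Its adaptor Tyrobp was at 3.91, 1.97 and 2.83 CPM in WT and at 3.74, 1.61 and 1.88 CPM in SCA1. Both overlapped between the groups, with log2FCs of -0.08 ± 0.33 and -0.26 ± 0.37. Apoe (log2FC 0.09 ± 0.27), Spp1 (0.36 ± 0.44), Lpl (0.36 ± 0.69), Cd68 (0.03 ± 0.29) and the lipopolysaccharide co-receptor gene Cd14 (-0.18 ± 0.48) did not pass the test either.

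The 3 C1q genes lie next to each other on chromosome 4 of GRCm39 and are all read from the minus strand: C1qa at 136623223 to 136626161, C1qc at 136616466 to 136620376 and C1qb at 136606009 to 136613511. The 150 bases before the start of each canonical transcript are shown for the 3 genes, of which C1qa and C1qb, but not C1qc, separated the 2 WT groups described further on. Capitals mark the PU box core GAGGAA, or TTCCTC where it lies on the other strand, the letters bound by PU.1, the lineage factor of microglia encoded by Spi1. The stretch of C1qa holds 0 cores, that of C1qb 1 and that of C1qc 1, and a link between cores and the group difference was not tested. Only these exact letters were searched, so a stretch with 0 cores may still hold a site for PU.1.
C1qa, chr4:136626162-136626311, minus strand: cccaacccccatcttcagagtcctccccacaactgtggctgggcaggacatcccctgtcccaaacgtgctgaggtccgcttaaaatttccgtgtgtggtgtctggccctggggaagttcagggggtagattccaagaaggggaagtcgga
C1qb, chr4:136613512-136613661, minus strand: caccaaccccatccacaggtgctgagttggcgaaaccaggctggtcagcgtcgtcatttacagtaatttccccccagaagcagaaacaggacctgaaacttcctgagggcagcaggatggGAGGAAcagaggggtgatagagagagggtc
C1qc, chr4:136620377-136620526, minus strand: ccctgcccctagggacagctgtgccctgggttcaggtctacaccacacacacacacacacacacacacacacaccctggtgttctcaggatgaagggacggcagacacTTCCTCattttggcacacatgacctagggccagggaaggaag

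In the 250 bases before the start, GAGGAA on either strand was present for 13 of the 33 members (39.4%) and for 4970 of 21667 protein-coding genes (22.9%). By class these were 6 of 16 homeostatic, 4 of 10 activated, 2 of 5 complement and 1 of 2 cytokine genes. The homeostatic genes with the letters were P2ry13, Csf1r, Ctss, Itgam, Fcrls and Ptprc, the activated genes Trem2, Tyrobp, Cd68 and Lpl, the complement genes C1qb and C1qc, and the cytokine gene Tnf. In Tyrobp and Trem2 they began 38 and 40 bases before the start, in C1qb 30 and in C1qc 42.

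C1qa, C1qb and C1qc encode the 3 chains of C1q. C1qa was at 9.91, 7.69 and 9.43 CPM in WT and at 14.5, 5.61 and 7.31 CPM in SCA1 sedentary mice. C1qb was at 11.2, 10.2 and 11.5 CPM in WT and at 16.2, 8.15 and 7.65 CPM in SCA1 sedentary mice. For both chains mouse 16 was above, and mice 194 and 195 below, all 3 WT mice. C1qc was at 8.96, 7.14 and 7.55 CPM in WT and at 14.4, 7.26 and 6.40 CPM in SCA1 sedentary mice, so that mouse 194 lay within the WT range. The fitted log2FCs were 0.03 ± 0.34, -0.04 ± 0.27 and 0.25 ± 0.30. C3, the central component of the cascade, was at 0.978, 0.855 and 1.06 CPM in WT and at 3.21, 0.425 and 0.241 CPM in SCA1 sedentary mice, which is the widest spread of any member (log2FC 0.46 ± 0.87). C4b, which astrocytes and oligodendrocytes also make, was at 20.7, 18.1 and 21.6 CPM in WT and at 41.2, 17.5 and 15.3 CPM in SCA1 sedentary mice (log2FC 0.30 ± 0.36). C4b is nearly identical to its neighbour C4a, and read pairs that align to both are not in these counts, so its level is uncertain.

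**Figure D3:**
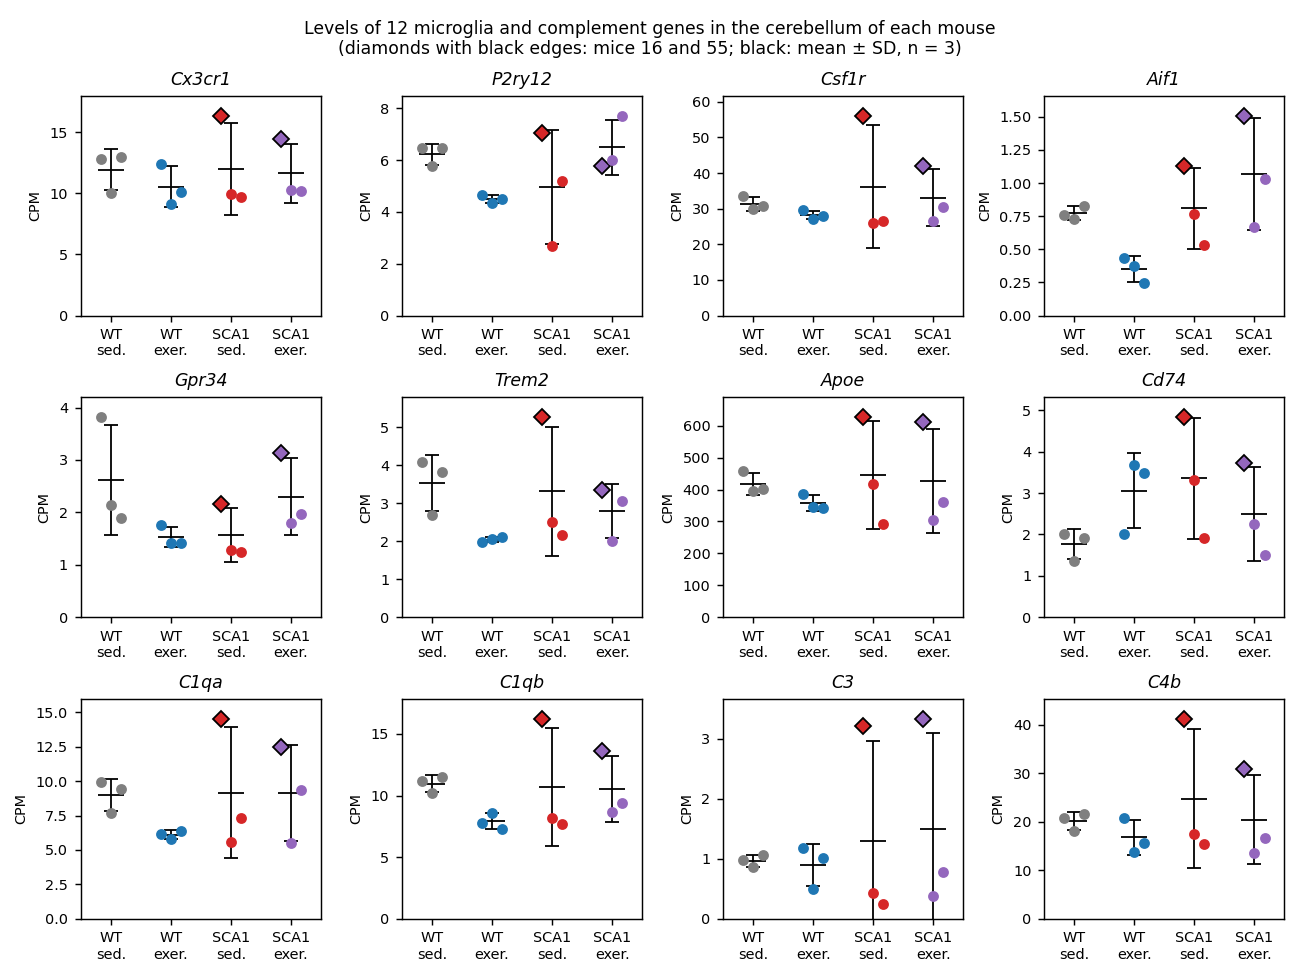
CPM of 12 members in each mouse (points), with the mean ± SD of 3 mice per group in black; mice 16 and 55 are diamonds, and bars that reach below 0 are drawn to 0. The diamonds top their groups except for P2ry12 in SCA1 exercise mice, and the 3 WT exercise mice lie below the 3 WT sedentary mice for P2ry12, Csf1r, Aif1, Gpr34, Trem2, Apoe, C1qa and C1qb.

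Without mice 16 and 55 this comparison pointed the other way. The log2FC was below 0 for 27 of 29 members, with a median of -0.38, and 17 members changed sign. At an unadjusted p under 0.05, 10 members were lower, against 9.51% of all 20494 genes tested in these 10 libraries, and none was higher, against 10.7%. These were Gpr34 (log2FC -1.04 ± 0.33), C1qb (-0.45 ± 0.14), C3 (-1.49 ± 0.52), P2ry12 (-0.65 ± 0.24), Selplg (-0.50 ± 0.21), Csf1r (-0.24 ± 0.10), Trem2 (-0.58 ± 0.25), Ctss (-0.40 ± 0.17), Tyrobp (-0.72 ± 0.32) and C1qa (-0.47 ± 0.21). Selplg encodes a selectin ligand of microglia. None of them was called, the lowest adjusted p by edgeR being 0.106 for C1qb, while 1.0% of all genes were called. In 15 members mice 194 and 195 both lay below all 3 WT sedentary mice, against 16.4% of all genes, which is a comparison of 2 mice with 3. The members are largely genes of 1 cell type measured in the same libraries, so such counts are not counts of independent events. Oligodendrocyte markers lay the same way: 3033 and 2623 CPM summed in mice 194 and 195, against 3403 to 4415 CPM in WT sedentary mice. So did astrocyte and Bergmann glia markers, at 3093 and 3161 CPM against 3703 to 4530 CPM, and without mice 16 and 55 all 10 of these were below 0, 7 of them at an unadjusted p under 0.05 and 1 called, a larger share than among the members. The part of these markers in the microglia values was not tested.

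**Figure D4:**
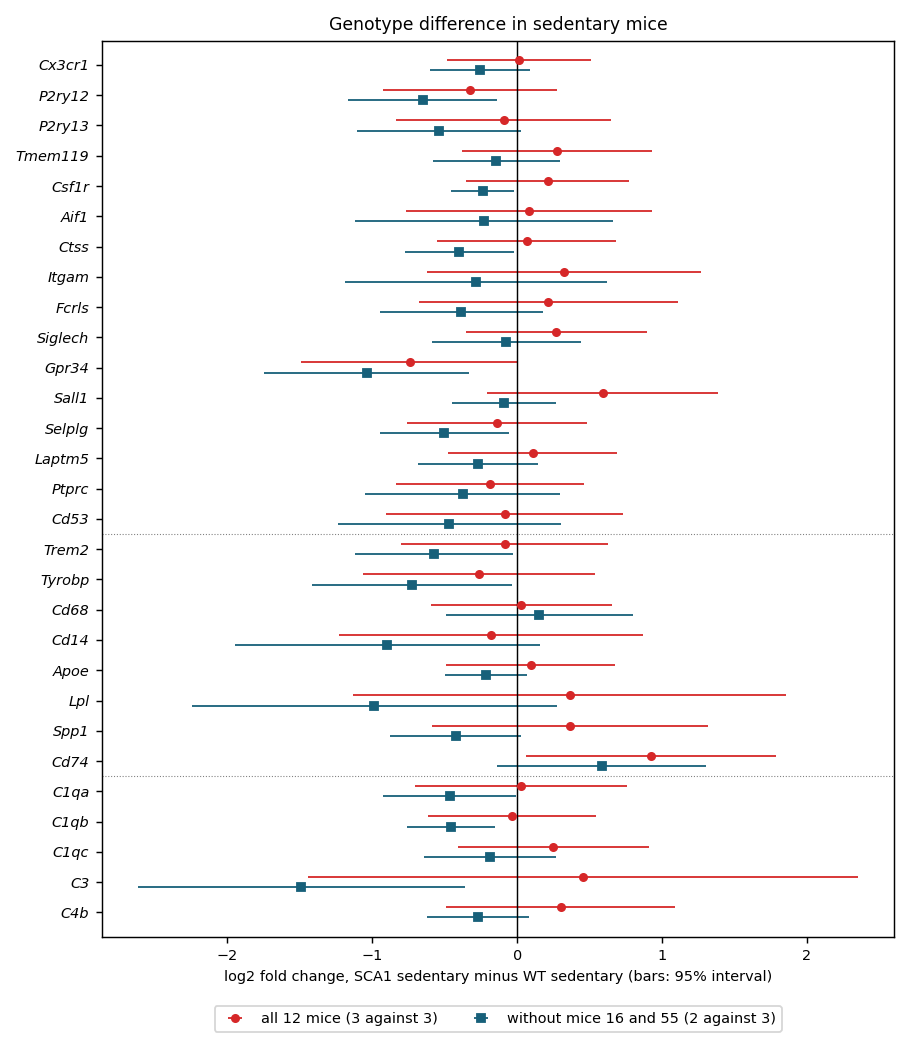
Log2 fold change of SCA1 sedentary minus WT sedentary mice for each tested member, with 95% intervals from edgeR, for all 12 mice (red circles) and without mice 16 and 55 (blue squares). Most circles lie near 0 with a median of 0.08, and the squares lie to their left with a median of -0.38, except for Cd68.

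WT exercise against WT sedentary mice, is the comparison between groups that does not hold mice 16 or 55. The log2FC was below 0 for 27 of 29 members, with a median of -0.25, and above 0 for Cd74 and Ptprc. No member was called by edgeR or by DESeq2, and edgeR called 0.0% of all genes where DESeq2 called 65. Aif1, Gpr34 and Trem2 were lower at an unadjusted p under 0.05, against 1.91% of all genes, and no member was higher, against 2.78%. In 10 members all 3 WT exercise mice lay below all 3 WT sedentary mice, against 11.1% of all genes. These 10 were P2ry12, Csf1r, Aif1, Gpr34, Laptm5, Trem2, Apoe, Spp1, C1qa and C1qb.

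Aif1, on chromosome 17 at 35387384 to 35395053 of GRCm39, was at 0.757, 0.726 and 0.830 CPM in WT sedentary mice and at 0.438, 0.376 and 0.242 CPM in WT exercise mice. The groups did not overlap. The log2FC was -1.13 ± 0.42, with an unadjusted p of 0.0195 and an adjusted p of 0.958 by edgeR. Its counts were low, 6 to 38 per library, and the two-sided exact permutation test gave the smallest p that 3 mice against 3 allow, 0.1. Trem2 was at 1.97, 2.04 and 2.10 CPM in WT exercise mice, below its 2.69 to 4.07 CPM in WT sedentary mice (log2FC -0.79 ± 0.33). Gpr34 was at 1.75, 1.42 and 1.41 CPM in WT exercise mice against 1.89 to 3.82 CPM (log2FC -0.78 ± 0.34), where mouse 116 alone set the upper end. The groups did not overlap for either gene, and both adjusted p were 0.958.

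P2ry12 was at 4.64, 4.34 and 4.49 CPM in WT exercise mice, against 5.77 to 6.47 CPM in WT sedentary mice (log2FC -0.47 ± 0.28). C1qa was at 6.18, 5.80 and 6.39 CPM against 7.69 to 9.91 CPM (log2FC -0.56 ± 0.34), and C1qb at 7.80, 8.60 and 7.31 CPM against 10.2 to 11.5 CPM (log2FC -0.47 ± 0.27). All 3 were lower in every WT exercise mouse than in any WT sedentary mouse, while the third chain C1qc overlapped (log2FC -0.12 ± 0.31). Cd74 went the other way, with 2.02, 3.67 and 3.48 CPM in WT exercise mice against 1.37 to 2.02 CPM in WT sedentary mice (log2FC 0.78 ± 0.40, adjusted p = 0.958). Border macrophage markers, the cells of meninges and choroid plexus that carry MHC class II, were at 19.98, 28.0 and 29.9 CPM summed in the same 3 mice, against 20.4 to 25.5 CPM. Choroid plexus markers summed to 1409 to 3189 CPM in WT exercise mice and to 144 to 686 CPM in WT sedentary mice. Oligodendrocyte markers summed to 2831 to 2970 CPM in WT exercise mice and to 3403 to 4415 CPM in WT sedentary mice. Meninges and fibroblast markers summed to 85.1 to 112 CPM and to 57.8 to 104 CPM in these groups, and astrocyte and Bergmann glia markers to 3870 to 4310 CPM and to 3703 to 4530 CPM. The part of these tissue differences in the microglia values was not tested.

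With mice 16 and 55 left out of the model, which leaves the same 6 mice in this comparison but a smaller estimated spread, 7 members were lower at an unadjusted p under 0.05, against 6.80% of all genes. These were C1qb, Trem2, Ctss, C1qa, Aif1, Gpr34 and P2ry12, and 1 member, Cd74, was higher, against 6.49%. None was called (lowest adjusted p = 0.158, C1qb), while 0.312% of all genes were.

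SCA1 exercise against SCA1 sedentary mice asked whether running went with a difference in mice with the repeat. No member was called by edgeR or by DESeq2, and edgeR called 0.0% of all genes where DESeq2 called 1. None had an unadjusted p under 0.05, against 1.19% of all genes higher and 0.978% lower. The log2FC was above 0 for 10 and below 0 for 19 members, with a median of -0.05. Mouse 16 was on one side of this comparison and mouse 55 on the other, and no member separated the groups, against 2.43% of all genes upward and 2.07% downward. P2ry12 was at 5.75, 6.005 and 7.72 CPM in SCA1 exercise mice 55, 122 and 198, against 7.03, 2.68 and 5.20 CPM in SCA1 sedentary mice. The lowest P2ry12 value of the 12 mice was that of mouse 194. The log2FC was 0.38 ± 0.28 (adjusted p = 0.999). With those mice left out it was 0.80 ± 0.26, with an unadjusted p of 0.00808 and an adjusted p of 0.565, the only member under the unadjusted limit, against 3.69% of all genes higher, and no member was lower, against 5.1%. The median of the members was then 0.20, with 23 of 29 above 0, and in 11 members mice 122 and 198 both lay above mice 194 and 195, against 17.9% of all genes.

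**Figure D5:**
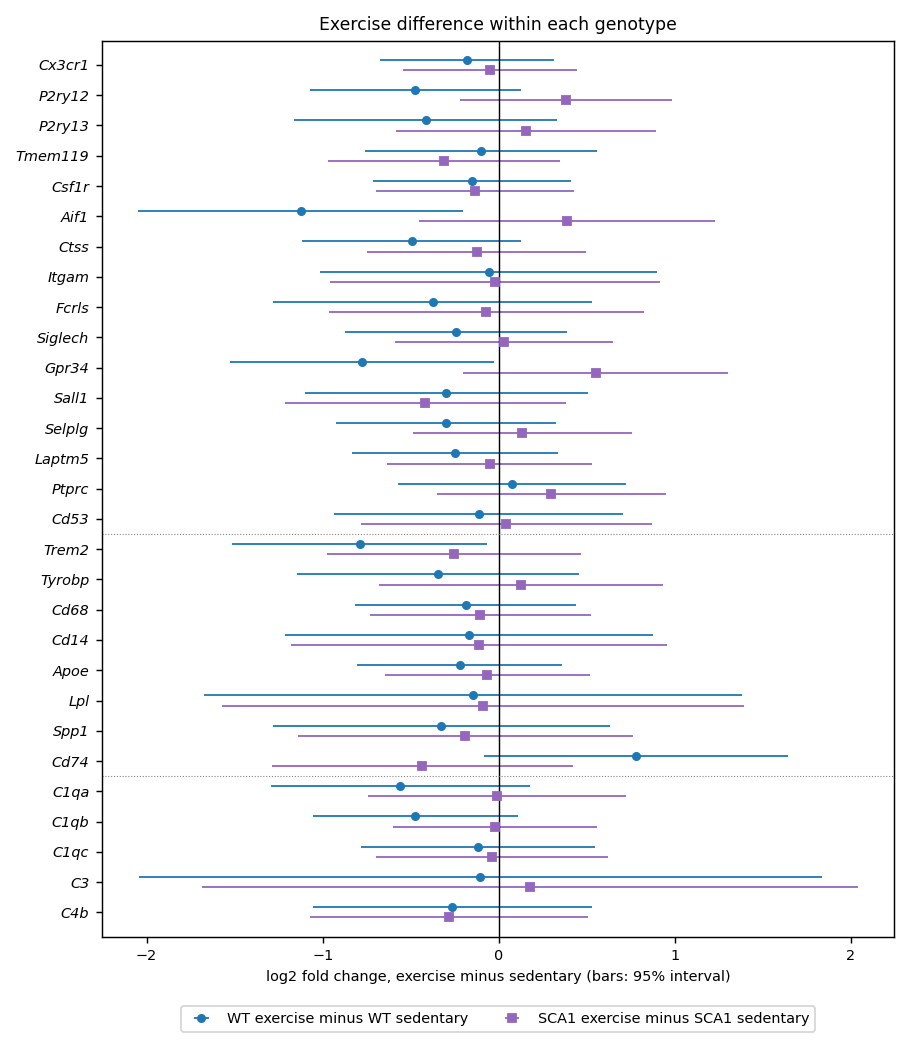
Log2 fold change of exercise minus sedentary mice for each tested member within WT mice (blue circles) and within SCA1 mice (purple squares), with 95% intervals from edgeR. In WT mice 27 of 29 circles lie below 0, and in SCA1 mice 19 of 29 squares do; the intervals of Aif1, Gpr34 and Trem2 in WT mice are the only ones drawn that do not reach 0.

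The interaction, the exercise difference in SCA1 mice minus that in WT mice, was above 0 for 25 of 29 members, with a median of 0.20. Aif1 (1.51 ± 0.57), Gpr34 (1.33 ± 0.49) and P2ry12 (0.86 ± 0.39) were above 0 at an unadjusted p under 0.05, against 1.57% of all genes, and Cd74 (-1.21 ± 0.56) was below 0, against 2.21%. None was called by edgeR or by DESeq2 (edgeR's adjusted p = 1.000 for each), and edgeR called 0.0% of all genes where DESeq2 called 2. Without mice 16 and 55 the median was 0.46, 27 of 29 members were above 0 and 7 passed the unadjusted limit in that direction, against 6.86% of all genes. The 7 were P2ry12 (1.27 ± 0.33), Gpr34 (1.35 ± 0.46), Aif1 (1.49 ± 0.60), C1qb (0.66 ± 0.20), C1qa (0.75 ± 0.30), Ctss (0.70 ± 0.25) and Trem2 (0.89 ± 0.36). The lowest adjusted p among the members was 0.187, for P2ry12. The interaction uses the same mice as the preceding comparisons and is not separate evidence.

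SCA1 exercise against WT exercise mice gave log2FCs above 0 for 27 of 29 members, with a median of 0.36, and no member was called by edgeR or by DESeq2. Over all genes edgeR called 0.0% and DESeq2 2 genes. At an unadjusted p under 0.05 Aif1 alone was higher, against 1.45% of all genes, and no member was lower, against 1.48%. It was at 1.51, 0.667 and 1.03 CPM in SCA1 exercise mice and at 0.438, 0.376 and 0.242 CPM in WT exercise mice, without overlap. Its log2FC was 1.59 ± 0.42, with an unadjusted p of 0.00226 and an adjusted p of 0.960. These WT exercise values of Aif1 are the same ones compared with WT sedentary mice above. Aif1, P2ry12, Siglech, Gpr34 and C1qb were the 5 members for which the groups did not overlap, against 7.32% of all genes, all with SCA1 mice higher; none separated downward, against 6.92%. Siglech, a sialic acid receptor of microglia, was at 5.16, 4.00 and 3.30 CPM in SCA1 exercise mice against 2.497 to 3.13 CPM in WT exercise mice (log2FC 0.55 ± 0.29). In the other 10 mice the median was 0.07, and P2ry12 (0.62 ± 0.23) and Aif1 (1.27 ± 0.44) were higher at the unadjusted limit, against 2.72% of all genes, and no member was lower, against 4.17%.

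Averaged over both activity groups, SCA1 minus WT was above 0 for 24 of 29 members, with a median of 0.21, and no member was called by edgeR or by DESeq2, against 0.118% of all genes called by edgeR. Aif1 (log2FC 0.84 ± 0.29) had the lowest adjusted p of any member in any of the 7 comparisons, 0.368, and an exact permutation p of 0.055 with mice exchanged within activity groups. It was the only member at an unadjusted p under 0.05, against 5.56% of all genes higher and 4.25% lower. In sedentary mice alone Aif1 overlapped, at 0.529 to 1.13 CPM in SCA1 mice and 0.726 to 0.830 CPM in WT mice. The average uses the same WT exercise mice as the other Aif1 comparisons and is not separate evidence. Without mice 16 and 55, 25 of 29 members were below 0, with a median of -0.14, and C3 was the only member under the unadjusted limit (log2FC -1.06 ± 0.35, adjusted p = 0.207), against 5.57% of all genes lower and 6.16% higher. In these 10 mice C3 was at 0.241 to 0.772 CPM in SCA1 mice and at 0.501 to 1.18 CPM in WT mice, with overlap. Exercise minus sedentary, averaged over both genotypes, was below 0 for 26 of 29 members, with a median of -0.14. No member was called by edgeR or by DESeq2, and edgeR called 0.0% of all genes where DESeq2 called 11. Trem2 (-0.52 ± 0.24, adjusted p = 0.945) was the only member under the unadjusted limit, against 1.39% of all genes lower and 2.16% higher, and it was above that limit without mice 16 and 55 (-0.34 ± 0.18). Without these mice 19 of 29 members were below 0 for exercise minus sedentary, with a median of -0.05, and 7 members changed sign.

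The 4 members that were not tested are genes that mark strongly activated microglia or acute inflammation. Tnf had 5 counts in all, in 4 libraries, and Il1b 12 counts in 7 libraries. The protease inhibitor gene Cst7 had 11 counts in 5 libraries, and the integrin gene Itgax, which encodes CD11c, 2 to 13 counts in each of the 12 libraries. Il1b had no count in any WT sedentary mouse and was at 0.219, 0.0417 and 0.0404 CPM in WT exercise mice, while Cst7 had no count in any WT exercise mouse and was highest in mouse 16, at 0.177 CPM. Counts of these genes were low in every group, and at this depth small group differences in them could not be detected.

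Further genes of the same pathways were counted from lists, of which none reached a call in any of the 7 comparisons. Among 29 further microglia identity genes, 3 were higher and 1 lower in the SCA1 sedentary group, against WT sedentary, at an unadjusted p under 0.05, against 5.55% of all genes higher and 4.55% lower. Runx1, a transcription factor of the myeloid lineage, was at 2.72, 2.72 and 2.17 CPM in SCA1 sedentary mice and at 1.20, 1.20 and 1.02 CPM in WT sedentary mice. The groups did not overlap (log2FC 1.15 ± 0.31, adjusted p = 0.255), and the value without mice 16 and 55 was 1.12. Itgb5 was the one lower gene (-0.25 ± 0.10). Of 21 further disease-associated genes, 1 was higher in SCA1 sedentary mice, against 5.55% of all genes, the protease inhibitor gene Timp2 (1.21 ± 0.53), and its value without mice 16 and 55 was 0.23. Gpnmb (0.58 ± 0.26), a lysosomal glycoprotein of lipid-laden macrophages, was the lead gene of that list in SCA1 exercise against WT exercise mice.

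Ligands and receptors with which other cells keep or restrain microglia were measured for 14 genes. Cd200, a neuronal surface protein that restrains myeloid cells, was at 63.8, 33.5 and 33.7 CPM in SCA1 sedentary mice and at 37.1, 31.2 and 35.5 CPM in SCA1 exercise mice. It was at 25.8 to 28.6 CPM in the 6 WT mice, below every SCA1 mouse. Averaged over activity, the log2FC of Cd200 was 0.51 ± 0.15 (adjusted p = 0.246), and without mice 16 and 55 it was 0.31 (adjusted p = 0.0409), which is under the fold limit for a call. Sirpa, which encodes the receptor that reads the signal of CD47, had log2FCs of -0.31 ± 0.11 in sedentary mice and -0.25 ± 0.07 averaged over activity. Tgfb2 was the lead gene of the list in WT exercise against WT sedentary mice (0.35 ± 0.16).

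Among 26 further complement components and regulators, 5 were higher and 0 lower in SCA1 sedentary against WT sedentary mice at an unadjusted p under 0.05, where 5.55% of all genes were higher and 4.55% lower. Csmd3, a large neuronal membrane protein with the CUB and sushi domains of complement regulators, was at 123, 94.8 and 114 CPM in SCA1 sedentary mice and at 78.1, 106 and 116 CPM in SCA1 exercise mice. It was at 63.7, 59.3 and 81.0 CPM in WT sedentary mice and at 62.7, 70.0 and 67.7 CPM in WT exercise mice, so that within each activity group every SCA1 mouse was above every WT mouse. Averaged over activity, the log2FC was 0.64 ± 0.11 with an adjusted p of 0.0534, just above the limit. In the 10 mice without mice 16 and 55, Csmd3 was called in that comparison (log2FC 0.69, adjusted p = 0.000958), in sedentary mice (0.64, adjusted p = 0.0267) and in exercise mice (0.74, adjusted p = 0.0226), where 0.693%, 1.0% and 0.181% of all genes were called. Its relative Csmd1 was then called too, averaged over activity (0.50, adjusted p = 0.0311), as was the neuronal complement regulator Sez6 in sedentary mice (0.51, adjusted p = 0.00845). The terminal component C9 had no count in any library, and 12 of the 38 listed genes did not pass the filter on low counts.

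Of 20 interferon response and MHC genes, 7 were higher and 0 lower in SCA1 sedentary against WT sedentary mice at an unadjusted p under 0.05, with a median log2FC of 0.47, against 5.55% of all genes higher and 4.55% lower. These were Oasl2, Irf9, Isg15, Ifit1, Bst2, H2-Ab1 and H2-K1. Oasl2, an interferon-induced gene, was at 4.73, 4.71 and 3.90 CPM in SCA1 sedentary mice and at 3.09, 1.54 and 2.04 CPM in WT sedentary mice, without overlap (log2FC 0.99 ± 0.28, adjusted p = 0.276). It was at 5.39, 3.30 and 3.35 CPM in WT exercise mice, also above all WT sedentary mice (log2FC 0.84 ± 0.28, adjusted p = 0.892). These comparisons share the WT sedentary mice. With mice 16 and 55 left out, 4 genes of the list were higher in SCA1 sedentary mice at the unadjusted limit, against 10.7% of all genes. Irf9, a subunit of the interferon-stimulated transcription factor, was then called (log2FC 0.65, adjusted p = 0.0386), as were 1.0% of all genes. Ifit1 had the lowest p of the list in the interaction (-1.06 ± 0.45, adjusted p = 1.000).

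In the cytokine, chemokine and inflammasome list, 20 of 30 genes were tested. No single gene differed between the sedentary groups at an unadjusted p under 0.05, against 5.55% of all genes higher and 4.55% lower. The summed level of the 30 genes was 160 to 164 CPM in SCA1 sedentary mice and 139 to 150 CPM in WT sedentary mice, and this sum was not tested. In exercise mice the sum overlapped, at 153 to 159 CPM in SCA1 and 147 to 156 CPM in WT mice. The sums of the other pathway lists all overlapped between the sedentary groups. That of interferon and MHC genes was 249 to 315 CPM in SCA1 and 250 to 286 CPM in WT sedentary mice. Averaged over activity, 3 of the tested genes were higher in SCA1 mice, against 5.56% of all genes, led by the NF-kB inhibitor gene Nfkbia (0.23 ± 0.10). Tnfrsf1b, a TNF receptor, was at 3.06, 2.25 and 2.19 CPM in SCA1 exercise mice and at 1.66, 1.25 and 1.495 CPM in WT exercise mice (log2FC 0.76 ± 0.33, adjusted p = 0.960). The inflammasome adaptor gene Pycard was at 0.794, 0.709 and 0.772 CPM in SCA1 exercise mice and at 1.91, 1.19 and 1.01 CPM in SCA1 sedentary mice (log2FC -0.86 ± 0.38, adjusted p = 0.999). The groups did not overlap for either gene. Among the identity genes, Plcg2, a phospholipase downstream of TREM2, was the only one lower in SCA1 exercise than in SCA1 sedentary mice at the unadjusted limit (-0.67 ± 0.28).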

How the data were processed

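Cerebellar RNA of 12 mice was depleted of ribosomal RNA and made into strand-specific libraries. Read quality was assessed by the authors with FastQC, and libraries with much adapter sequence were trimmed with fastp 0.24.0. They aligned the reads to GRCm39 with STAR 2.7.10a and deposited the raw counts of read pairs per gene that STAR wrote, without normalization. Of 56941 genes, 56323 matched GENCODE M39 by Ensembl ID, and Fcrls, named Fcrl2 there, was matched by ID. Multimapping pairs are not counted. For 2 RNA samples of lower integrity the authors changed fragmentation and amplification, and which ones is not given in the sources used here.

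Reverse-strand counts (20556802 to 32127508 per library) were used, and CPM with TMM library sizes was computed here. Genes were filtered with filterByExpr in edgeR 4.0.16 (R 4.3.3), and 20341 were tested with its quasi-likelihood test in 1 model of 4 groups. The 7 comparisons were the 4 between neighbouring groups, both averages and the interaction, with Benjamini-Hochberg adjustment over all tested genes. Errors after ± are SE for log2FC. Log2FCs are on the scale of this model. A two-sided exact permutation test was run for each member on log2(CPM + 0.5), which cannot go below 0.1 with 3 mice against 3. The p-values measure the spread between single mice. The model was tested on simulated data with known changes.

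The members and lists were chosen with earlier results of these data known. Text names all members and, of each pathway list, any called gene and, per comparison and direction, the gene with the lowest p under 0.05, passing over genes with a mean level under 1 CPM; Csmd1, Sez6 and the interferon and MHC genes other than Oasl2 and Ifit1 were named after their values were seen. A gene of the complement list that this rule names is not reported here. Alternatives were DESeq2 1.42.0, RLE size factors, all genes with at least 1 count, unstranded counts, mice 16 and 55 left out, a sex covariate (summed level of 4 genes on chromosome Y), bands of mouse numbers (under 100, 100 to 150 and over 150) as a covariate, only the groups compared, and each mouse left out. Promoter sequence is from GRCm39 at the start of the GENCODE M39 canonical transcript.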

Additional observations from a re-analysis of the deposited data

How the results depend on the processing

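No member was called under any of 20 alternatives, 12 of which left out 1 mouse (lowest adjusted p = 0.104, C1qa in WT exercise against WT sedentary mice with only these groups in the edgeR model). What moved was the number of the 29 tested members at an unadjusted p under 0.05, and the median log2FC. With mice 16 and 55 left out, this number went from 1 to 10 for SCA1 sedentary against WT sedentary, from 3 to 8 for WT exercise against WT sedentary, from 0 to 1 for SCA1 exercise against SCA1 sedentary, from 1 to 2 for SCA1 exercise against WT exercise, from 1 to 0 for exercise averaged over genotype and from 4 to 8 for the interaction. The medians then were -0.38 for SCA1 sedentary against WT sedentary and -0.14 for SCA1 averaged over activity. With bands of mouse numbers, which set these mice apart as a band of their own, the same medians were -0.37 and -0.16, that of SCA1 exercise against WT exercise was 0.0066, and the numbers were 4 for SCA1 sedentary against WT sedentary, 7 for WT exercise against WT sedentary and 4 for exercise averaged. With the sex covariate the numbers were 0, 1, 1 and 2 in the 4 comparisons between groups, in the order above, and 0 for exercise averaged. Unstranded counts gave 0, 1 and 1 in the first 3 comparisons, 2 for exercise averaged and 0 for the interaction. With all genes of at least 1 count the numbers were 2, 5 and, for SCA1 averaged, 2. DESeq2 gave 2 for SCA1 averaged. With only the groups compared, the numbers were 10 for WT exercise against WT sedentary and 4 for SCA1 exercise against WT exercise. The cause of these shifts was not tested.

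Leaving out 1 mouse gave 0 to 4 members for SCA1 sedentary against WT sedentary (median -0.41 without mouse 16, highest 0.29 without mouse 195) and 0 to 7 for WT exercise against WT sedentary (0 without mouse 201, 1 without mouse 116 or 197, 7 without mouse 16). It gave 0 to 3 for SCA1 exercise against SCA1 sedentary (median -0.24 without mouse 195 to 0.44 without mouse 16), 1 to 7 for SCA1 exercise against WT exercise (7 without mouse 16), 1 to 5 for SCA1 averaged (5 without mouse 195), 0 to 2 for exercise averaged and 1 to 12 for the interaction (12 without mouse 16, 1 without mouse 116 or 201). The interaction median ran from -0.034 without mouse 55 to 0.79 without mouse 16. Where a group of 2 remained, its spread was taken from the model of all groups. Over all genes, the 7 and 24 calls for SCA1 sedentary against WT sedentary and for SCA1 averaged became 206 and 175 with DESeq2, 205 and 142 without mice 16 and 55, 76 and 125 without the filter on low counts, 55 and 84 when bands of mouse numbers were a covariate, 2 and 19 with the sex covariate, 5 and 13 unstranded, and 0 to 42 and 0 to 63 with 1 mouse left out (highest without mouse 55). With only the groups compared the 7 became 0. The 0 calls for WT exercise against WT sedentary became 65 with DESeq2, 64 without mice 16 and 55, 45 without the filter, 33 in the model with bands, 150 with only these groups, and 19 without mouse 195. Those for SCA1 exercise against WT exercise became 37 without mice 16 and 55, 3 with bands and 5 without mouse 55. No paired analysis was possible because the groups share no replicate numbers. With 3 mice a group, the intervals of 11 of 29 members in SCA1 sedentary against WT sedentary mice reached a log2FC of 1 or -1, so a difference of that size could be missed. Low counts limit Aif1, Cd14, C3 and Lpl, and the 4 untested members had too few counts in every group to pass the filter.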
